A study of Mus musculus with 6 samples.

Results

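The proteasome is the protease complex that breaks down ubiquitin-tagged proteins, and its subunits and regulators were followed in cultured mouse skin cells kept in normal or high glucose. Members were the protein-coding genes whose symbol is Psm, a letter from a to g and a number, without Psmb8 and Psmb9. This rule, which used no measured value, took 46 of the 55487 gene identifiers in the table. Of these 46 genes, 45 passed the filter on low counts and were among the 19015 genes tested. The remaining member, Psmb11, the thymus form of a catalytic subunit, had between 1 and 4 counts in each library and was not tested.

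Bulk RNA-sequencing of polyA RNA was carried out on 6 samples of cultured primary endothelial cells (ECs) from the skin of C57BL/6 mice. The 3 control samples were in normal glucose (5 mmol/L) and the other 3 in high glucose (20 mmol/L), each for 48 hours. The protocol used 4 to 6 mice aged 2 to 3 months to isolate the cells, which were enriched with CD31 beads. Total counts per library lay between 120192466 and 146881356. The study's captions count these data as 3 mice in each group, and the labels do not say whether replicates were separate isolations. The p-values measure only the spread between these samples.

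As background, the catalytic core is a barrel of stacked alpha and beta rings, and the beta subunits cut the substrate. A regulatory particle caps the barrel, where an ATPase ring unfolds the substrate and non-ATPase subunits recognise and remove ubiquitin. Other activators can replace this cap, dedicated chaperones assemble the rings, and several subunits have counterparts induced by interferon that serve antigen presentation.

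The EC label was compared with marker genes, and the values went partly against it: Pecam1 and several other defining endothelial markers were near the detection limit while fibroblast genes were abundant. Of 15 endothelial markers, 11 were tested, and Pecam1, which encodes CD31, had 9 to 19 counts in each library. Tie1, Emcn, Cldn5 and Robo4 fell below the filter. Other endothelial markers were well above the limit, with mean levels in normal glucose of 55.3 CPM for Flt1, 11.1 CPM for Egfl7, 6.22 CPM for Ecscr and 4.96 CPM for Kdr. The endothelial list summed to 222.6, 239.2 and 249.1 CPM (counts scaled by normalised library size) in normal glucose and to 204.0, 198.3 and 204.0 CPM in high glucose, with 2 higher and 4 lower calls, and Eng was its most abundant gene. All 14 fibroblast markers were tested, 11 were higher and 3 lower in high glucose, and Col3a1 led the list. Beside these and the other marker calls, 16.9% of all tested genes were higher and 14.5% lower. The fibroblast list summed to 42527, 39450 and 42713 CPM in normal glucose and to 74321, 76692 and 71787 CPM in high glucose. Much of this rise was in Col3a1 (means 12421 and 32515 CPM), while Thy1, Twist2 and S100a4 were lower. Pericyte and smooth muscle markers (9 of 10 tested, 1 higher and 5 lower) summed to a mean of 1227 CPM in normal and 1121 CPM in high glucose, with Pdgfrb the most abundant. Macrophage markers (7 of 10 tested, 1 higher and 3 lower) summed to 18.8 and 27.5 CPM, with Ptprc, Adgre1 and Itgam below the filter. The higher sum came from Cd14, the most abundant (means 9.47 and 21.1 CPM), while Csf1r, Cd68 and Mrc1 were lower. Keratinocyte markers (3 of 8 tested, with Trp63 the most abundant over all 6 samples and Krt10 in normal glucose) summed to 4.69 and 4.85 CPM. Among them Krt5 was higher, with counts of 2, 2 and 2 against 23, 12 and 14. Krt14, with counts of 2, 0 and 0 against 35, 9 and 31, Krt1, Epcam, Cdh1 and Krt15 were below the filter. No marker in these lists was at 0 in all 6 libraries. In bulk RNA, a change in the share of cells of a type and a change in RNA per cell cannot be told apart. The part of the marker shifts in the member values was not tested.

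Of the 7 members that passed the test, 3 were activators, 2 assembly chaperones, 1 a lid subunit and 1 a germline subunit. At an adjusted p under 0.05 by the edgeR quasi-likelihood test, 3 of 45 tested members were higher in high glucose (Psmd3, Psme3 and Psme4), against 16.9% of all tested genes. Another 4 were lower (Psme2, Psmd10, Psmg2 and Psma8), against 14.5% of all tested genes. Together, 15.6% of the tested members were called, compared with 31.4% of all tested genes and 42.0% of the 3289 tested genes with an average log2 CPM of at least 6. Among the 31 constitutive subunits of the complete complex, that is, the alpha and beta rings and the regulatory particle without Psma8, Psmb10 and Psmb11, Psmd3 was the single call. The 95% confidence intervals of these 31 log2 fold changes lay between -0.32 and 0.33. With library size alone, 10 of the 31 were called, all lower. After removal of the GC and length trends, 4 were called, all higher. Without normal glucose replicate 2, 3 were called, all lower.

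The median log2 fold change of the tested members was -0.03, against 0.01 for all tested genes, and it was 0.05 when trends on GC content and transcript length were removed, so no direction is drawn for the family. The median size of the change, regardless of sign, was 0.07 for the members, 0.05 for the constitutive subunits, 0.20 for all tested genes and 0.15 for the abundant ones. The 2 glucose groups were without overlap in 13 members (28.9%), compared with 46.4% of all tested genes. Counts of calls moved with the scaling: of all called genes, 53.8% were higher with the scaling used, 43.5% with upper quartile scaling and 27.1% with library size alone. Library size alone lowered the median of all genes by a log2 shift of -0.11, and then no member was higher and 17 were lower, while the distance of the members' median from that of all genes stayed at -0.04. After removal of the GC and length trends, 7 members were higher and 2 lower. Without normal glucose replicate 2, 9 members were lower. Without normal glucose replicate 1 or replicate 3, 1 member was higher. No member was higher when any high glucose replicate was left out.

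**Figure D1:**
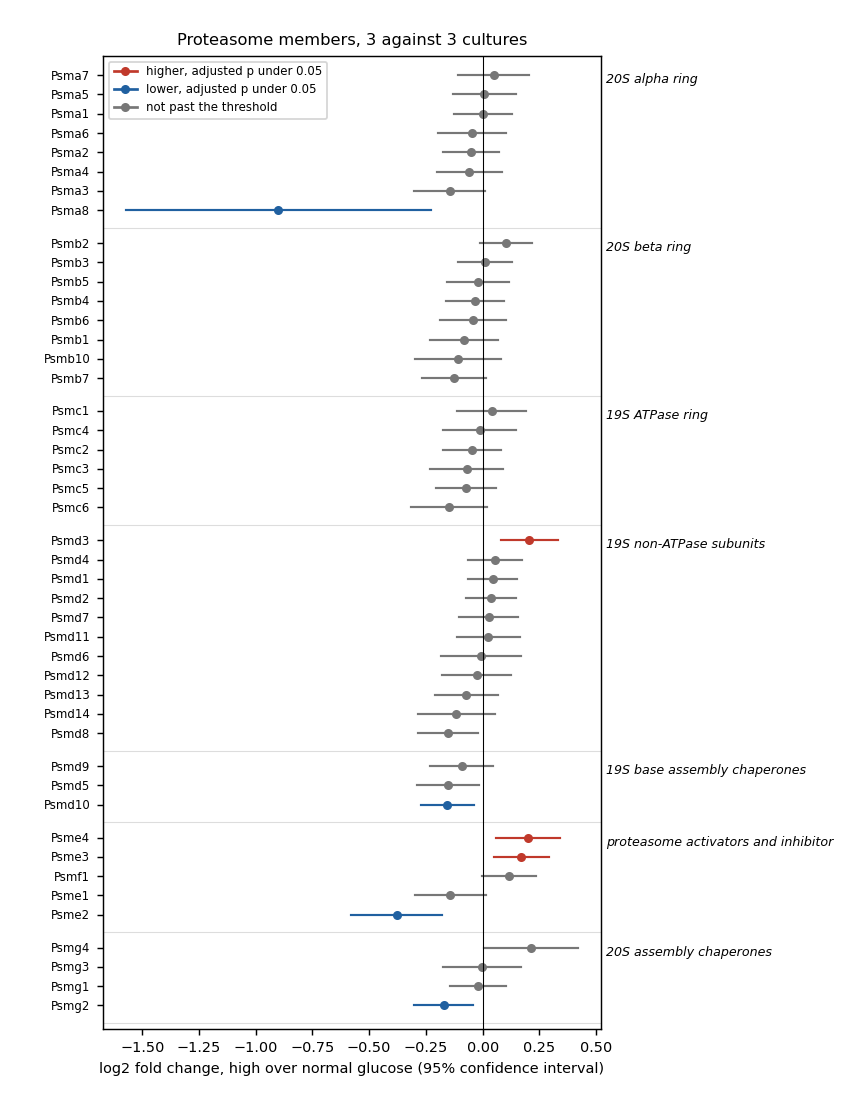
Log2 fold change of each of the 45 tested members in high over normal glucose (horizontal axis), with 95% confidence intervals as lines and members grouped by role. Red and blue points are the 3 higher and 4 lower members, and grey intervals of the rings cross or lie near 0.

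Promoters of the members are shown because Nfe2l1, which encodes a transcription factor of proteasome genes, was among the genes called higher in high glucose. Windows from 250 bases before to 50 bases after the gene start were taken from RefSeq (GRCm38.p6) and matched 38 members with 41 windows. There was no window for Psma8, Psmb1, Psmb2, Psmb7, Psmc3, Psmd3, Psmd7 and Psmg2. The letters of the antioxidant response element, TGACNNNGC on either strand, were found in 6 member windows (14.6%), against 12.4% of all 32851 windows. These belong to Psmb5, Psmb6, Psmc6, Psmd9, Psmd12 and Psme4. The stretches below are given 5′ to 3′ on the gene's strand, with the matched letters in capitals. They lie at chr14:54618004-54618072 on the minus strand for Psmb5, and on the plus strand at chr11:70525318-70525356 for Psmb6, chr14:45329574-45329635 for Psmc6, chr5:123228129-123228189 for Psmd9, chr11:107479278-107479319 for Psmd12 and chr11:30771738-30771776 for Psme4. In Psme4 the match spans the RefSeq start, and the other 5 matches are upstream of theirs. GENCODE begins Psme4 and Psmd9 upstream of these matches.
Psmb5: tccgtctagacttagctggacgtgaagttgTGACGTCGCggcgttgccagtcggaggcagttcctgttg
Psmb6: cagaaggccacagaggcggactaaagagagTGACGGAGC
Psmc6: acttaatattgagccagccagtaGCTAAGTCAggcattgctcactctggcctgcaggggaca
Psmd9: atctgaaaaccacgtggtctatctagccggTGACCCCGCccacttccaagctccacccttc
Psmd12: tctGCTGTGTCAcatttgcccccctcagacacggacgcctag
Psme4: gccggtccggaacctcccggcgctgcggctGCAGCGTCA

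The letters of the interferon-stimulated response element, GAAA, any 2 bases and GAAA on either strand, were in 5 member windows (12.2%), against 3.44% of all windows. These belong to Psmb3, Psmd4, Psmd9, Psme1 and Psmg4, and Psme2 had no match in its windows. A match is a description of letters and not a bound site. The match of Psme1 lies just past the RefSeq start of the gene, and the stretch printed below is at chr14:55578473-55578512 on the plus strand. It is shown since Psme1 and Psme2 are the interferon-inducible activator pair. GENCODE begins Psme1 upstream of this match.
Psme1: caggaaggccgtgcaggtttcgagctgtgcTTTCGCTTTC
CCAAT, the letters bound by the factor NF-Y, was in 13 member windows (31.7%), against 37.4% of all windows. TTCNNNGAA, the letters of the gamma-activated site, was in 2 (4.88%), against 8.30%.

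In the alpha ring, which gates the barrel, the 7 constitutive subunits Psma1 to Psma7 were not called, and their log2 fold changes lay between -0.15 (Psma3) and 0.05 (Psma7). Psma3 measured 146.8, 127.2 and 126.4 CPM in normal glucose and 115.3, 128.1 and 118.6 CPM in high glucose, and the groups overlapped. The germline subunit Psma8 was the only called member of this ring. Its counts were 33, 30 and 32 with normal glucose against 24, 10 and 17 with high glucose. All 3 high glucose libraries were below all 3 normal ones. Its level fell from 0.242 ± 0.027 to 0.127 ± 0.042 CPM (SD, n = 3), where 3 counts correspond to between 0.0211 and 0.0258 CPM in a library. The log2 fold change was -0.90 ± 0.30 (SE, edgeR adjusted p = 0.0448). Its edgeR adjusted p was 0.0943, 0.0551 and 0.104 without normal glucose replicate 1, 2 and 3, and 0.123 and 0.117 without high glucose replicate 2 and 3. The call was also lost with DESeq2 (adjusted p = 0.108), after removal of the GC and length trends (edgeR adjusted p = 0.0690) and with a replicate block (edgeR adjusted p = 0.0530), and it held in 7 of 18 alternatives.

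The beta ring carries the catalytic subunits, and none of its 8 tested members was called. Psmb5, the chymotrypsin-like subunit, measured 96.6, 84.9 and 98.0 CPM in normal glucose and 93.4, 91.7 and 90.6 CPM in high glucose. All high glucose samples lay inside the range of the normal ones. Its log2 fold change was -0.02, with a 95% confidence interval from -0.16 to 0.12. Psmb6, the caspase-like subunit, measured 97.9, 82.3 and 92.1 CPM in normal glucose and 89.3, 88.1 and 87.4 CPM in high glucose, again inside the normal range (log2 fold change -0.04, interval -0.19 to 0.10). Psmb7, the trypsin-like subunit, measured 95.4, 81.7 and 85.2 CPM against 78.8, 80.6 and 81.1 CPM. Its groups did not overlap, but the gap was narrow, and the log2 fold change of -0.13 ± 0.06 (SE) did not pass the threshold (edgeR adjusted p = 0.161). Without normal glucose replicate 2, the value for Psmb7 was -0.18 (edgeR adjusted p = 0.0414).

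Psmb10, the interferon-inducible counterpart of Psmb7, measured 23.41, 18.33 and 21.94 CPM in normal glucose and 19.01, 19.35 and 20.66 CPM in high glucose, with overlapping groups. Its log2 fold change was -0.11 (interval -0.30 to 0.08), and -0.22 without normal glucose replicate 2 (edgeR adjusted p = 0.0249). Psmb4, a structural subunit next to the middle of the group, measured 149, 131 and 145 CPM against 139, 139 and 137 CPM. The remaining tested beta subunits lay between -0.08 (Psmb1) and 0.10 (Psmb2). Psmb2 was above all normal samples in each high glucose sample, yet its interval reached from -0.01 to 0.22. It was called after removal of the GC and length trends (log2 fold change 0.20, edgeR adjusted p = 0.00256).

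In the ATPase ring of the regulatory particle, none of the 6 members was called, and their log2 fold changes lay between -0.15 (Psmc6) and 0.04 (Psmc1). Psmc2 and Psmc3 stand on either side of the group's median of -0.06. Psmc2 measured 130, 116 and 121 CPM in normal glucose and 114, 120 and 122 CPM in high glucose. Psmc3 measured 189, 153 and 176 CPM in normal glucose and 163, 167 and 164 CPM in high glucose. The high glucose values of Psmc3 were close together, within the wide range of the normal samples. Without normal glucose replicate 2, which had the lowest Psmc3 value, its log2 fold change was -0.16 (edgeR adjusted p = 0.0426).

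Of the 11 non-ATPase subunits, which include ubiquitin receptors and a deubiquitinating enzyme, Psmd3 alone was called. Psmd3, a scaffold subunit of the lid, measured 153, 141 and 158 CPM in normal glucose and 174, 172 and 176 CPM in high glucose. Every high glucose sample was above every normal one, and the mean went from 151 ± 8.96 to 174 ± 1.98 CPM (SD, n = 3). The log2 fold change was 0.21 ± 0.06 (SE, edgeR adjusted p = 0.0179). Its edgeR adjusted p was 0.0522 without normal glucose replicate 2, and 0.0920, 0.0610 and 0.106 without high glucose replicate 1, 2 and 3. With library size alone, the Psmd3 value was 0.09 (edgeR adjusted p = 0.208). Psmd3 was called in 13 of 19 alternatives.

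The other 10 subunits of this group ranged from -0.15 (Psmd8) to 0.05 (Psmd4). Psmd8, a lid subunit, measured 135, 119 and 126 CPM in normal glucose and 110, 117 and 114 CPM in high glucose, and its groups did not overlap. It did not pass the threshold (log2 fold change -0.15, edgeR adjusted p = 0.0761), and it did without normal glucose replicate 2 (-0.21, edgeR adjusted p = 0.0175). It passed in 6 of 19 alternatives, among them DESeq2 and upper quartile scaling. Psmd14, the deubiquitinating subunit, had a log2 fold change of -0.12 (interval -0.29 to 0.05), and the ubiquitin receptor Psmd4 one of 0.05 (interval -0.07 to 0.17).

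Across samples, most of the 31 constitutive subunits shared the same order within the normal glucose group. Normal glucose replicate 1 had the highest value of its group for 27 of the 31 subunits, and normal glucose replicate 2 the lowest for 25. Relative to the mean of the normal samples, the average log2 deviation of the 31 subunits was 0.09, -0.08 and -0.01 in normal glucose. In high glucose it was -0.06, 0.01 and -0.02. The normal samples thus spread more widely (SD 0.09) than the high glucose samples (SD 0.04), and the difference between the group means, -0.02, was smaller than either SD. All 46 members summed to 4435, 3990 and 4187 CPM in normal glucose and 4063, 4234 and 4162 CPM in high glucose, and these sums overlapped under the scaling used. As a share of raw counts, the members held 0.462%, 0.418% and 0.432% with normal glucose against 0.392%, 0.404% and 0.401% with high glucose, without overlap.

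**Figure D2:**
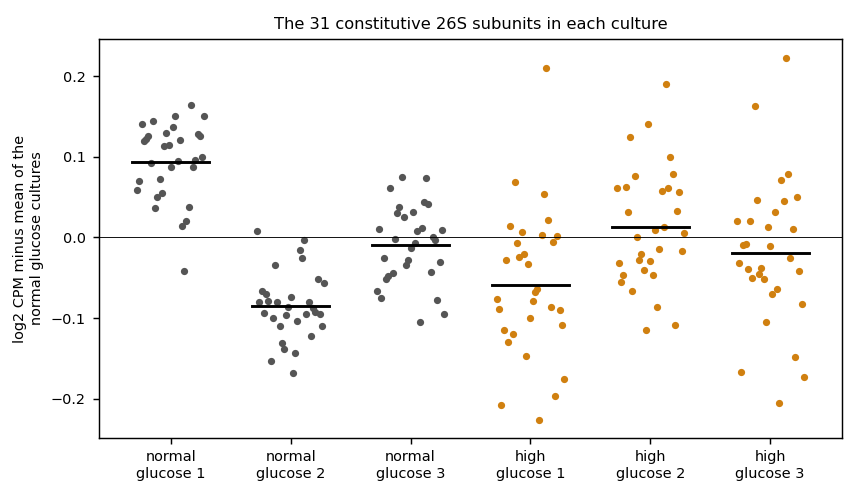
Log2 CPM of each of the 31 constitutive subunits in each sample, minus the mean of the 3 normal glucose samples for that subunit (vertical axis), with black bars for the average of the 31 points. The points of normal glucose replicate 1 lie mostly above 0 (average 0.09) and those of normal glucose replicate 2 mostly below 0 (average -0.08).

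Of the 5 genes for the activators and the inhibitor, 3 were called (60.0%, against 31.4% of all tested genes). Of these calls, 2 were higher (40.0%, against 16.9%) and 1 lower (20.0%, against 14.5%). Psme1 and Psme2 encode the interferon-inducible activator ring, whose genes lie on chromosome 14 (Psme1 from 55578123, Psme2 from 55587441 in GRCm38). Psme2 measured 106, 80.7 and 87.7 CPM in normal glucose and 67.4, 71.6 and 72.2 CPM in high glucose. The groups were separate, with high glucose lower, and normal glucose replicate 1 stood highest. The mean fell from 91.6 ± 13.2 to 70.4 ± 2.64 CPM (SD, n = 3). This is a log2 fold change of -0.38 ± 0.09 (SE, edgeR adjusted p = 0.00922). Psme2 was the only member called under all 19 alternatives, with log2 fold changes between -0.49 and -0.28. Its partner Psme1 measured 69.1, 56.8 and 63.8 CPM in normal glucose and 55.7, 58.5 and 57.6 CPM in high glucose. These groups overlapped, and the log2 fold change of -0.14 had an interval from -0.30 to 0.01. Without normal glucose replicate 2, Psme1 was at -0.23 (edgeR adjusted p = 0.0130).

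Psme3, the nuclear activator, measured 90.1, 99.5 and 96.8 CPM in normal glucose and 105, 109 and 109 CPM in high glucose. All high glucose samples were above the normal ones, with a log2 fold change of 0.17 ± 0.05 (SE, edgeR adjusted p = 0.0356). Psme4, the large single-chain activator, measured 105, 119 and 105 CPM in normal glucose and 122, 132 and 124 CPM in high glucose. Its groups were also separate, though normal glucose replicate 2 came close, and the log2 fold change was 0.20 ± 0.06 (SE, edgeR adjusted p = 0.0365). Both calls depended on single libraries and on the scaling, with Psme3 called in 8 and Psme4 in 10 of 19 alternatives. For Psme3, the edgeR adjusted p was 0.0787 and 0.0924 without normal glucose replicate 1 and 3, and 0.115, 0.135 and 0.178 without high glucose replicate 1, 2 and 3. For Psme4, the corresponding edgeR adjusted p was 0.0839 and 0.152, and 0.0917, 0.170 and 0.118. With library size alone, the log2 fold changes were 0.06 and 0.08 and neither was called. With upper quartile scaling, the edgeR adjusted p was 0.0869 for Psme3 and 0.0789 for Psme4. Without normal glucose replicate 1, the log2 fold change of Psme3 was 0.11.

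Psmf1, which encodes an inhibitor of the core particle, measured 30.34, 31.02 and 32.53 CPM in normal glucose and 32.95, 33.56 and 35.19 CPM in high glucose. The groups did not overlap, but the difference did not pass the threshold (log2 fold change 0.12 ± 0.05 SE, edgeR adjusted p = 0.131).

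**Figure D3:**
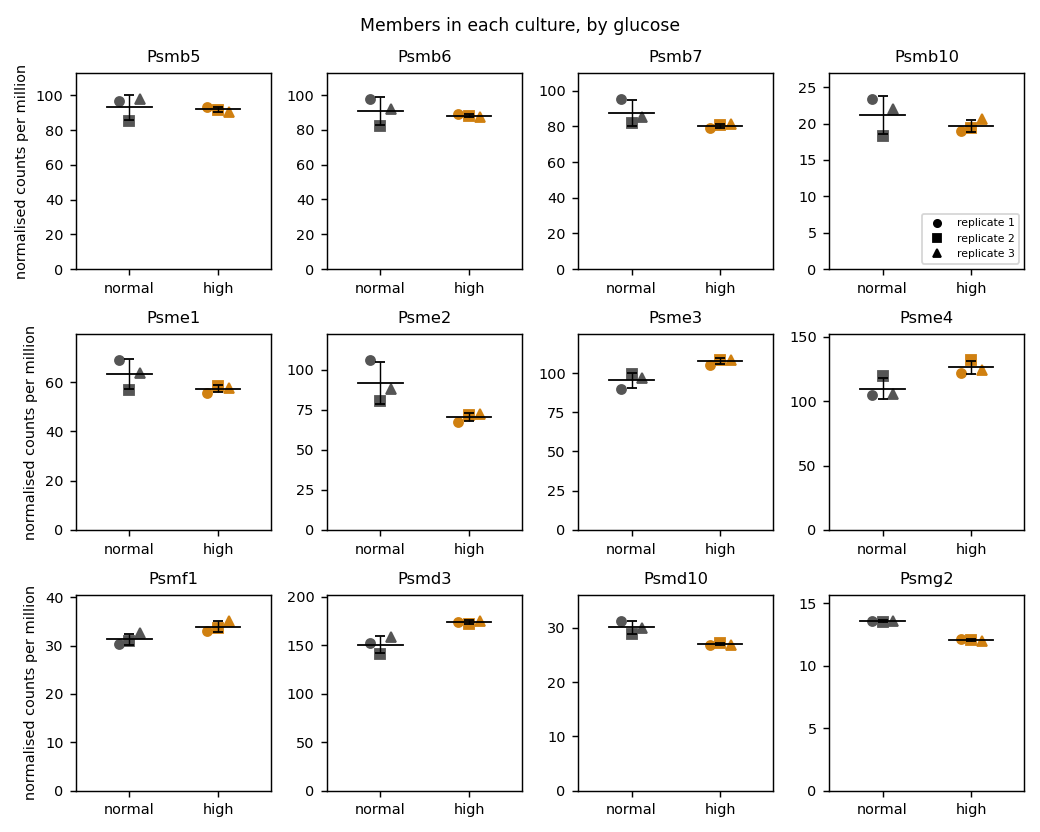
Normalised CPM of 12 members in each sample (vertical axes from 0), by glucose, with replicate numbers as symbols, means as horizontal bars and SD as whiskers (n = 3). Psme2, Psmd10 and Psmg2 are lower and Psme3, Psme4 and Psmd3 higher in every high glucose sample than in any normal one, and Psmb5, Psmb6, Psmb10 and Psme1 overlap.

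Among the chaperones that assemble the base of the regulatory particle, Psmd10 was called. It measured 31.34, 28.93 and 30.01 CPM in normal glucose and 26.92, 27.24 and 26.87 CPM in high glucose, with separate groups. The log2 fold change was -0.16 ± 0.05 (SE, edgeR adjusted p = 0.0443). Removing the GC and length trends gave -0.03 (edgeR adjusted p = 0.637). Its edgeR adjusted p was 0.0759 without normal glucose replicate 3, and 0.102, 0.0722 and 0.121 without high glucose replicate 1, 2 and 3. With a replicate block it was 0.0779 by edgeR, and limma-voom gave an adjusted p of 0.0529. Psmd10 was called in 10 of 19 alternatives. Psmd5, another of these chaperones, had separate groups and a log2 fold change of -0.15 (interval -0.29 to -0.02, edgeR adjusted p = 0.0815), and -0.22 without high glucose replicate 2 (edgeR adjusted p = 0.0371). Psmd5 passed in 7 of 19 alternatives, among them DESeq2 and removal of the GC and length trends. Psmd9 was at -0.09 (interval -0.23 to 0.05), and at -0.16 without normal glucose replicate 2 (edgeR adjusted p = 0.0477).

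Of the 4 chaperones that assemble the core particle, Psmg2 was called. It measured 13.58, 13.50 and 13.64 CPM in normal glucose and 12.16, 12.04 and 11.98 CPM in high glucose, and replicates of each group were nearly equal. The log2 fold change was -0.17 ± 0.06 (SE, edgeR adjusted p = 0.0491). Removing the GC and length trends gave -0.05 (edgeR adjusted p = 0.496). Its edgeR adjusted p was 0.0927 without normal glucose replicate 3, and 0.0965, 0.0859 and 0.127 without high glucose replicate 1, 2 and 3. With a replicate block it was 0.0978 by edgeR, and Psmg2 was called in 11 of 19 alternatives. Psmg1, the partner of Psmg2 in a heterodimer, was at -0.02 (interval -0.15 to 0.10). Psmg3 lay at 0.00 (interval -0.17 to 0.17). Psmg4, the partner of Psmg3, had separate groups at about 3 CPM (normal mean 3.14, high mean 3.64) and a log2 fold change of 0.21 ± 0.09 (SE, edgeR adjusted p = 0.112). It was called after removal of the GC and length trends (0.31, edgeR adjusted p = 0.0193).

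Levels were compared between genes as CPM per kb of the principal transcript, in normal glucose. The constitutive subunits lay between 36.5 (Psmc6) and 120 CPM per kb (Psmb4), with a median of 75.4. These levels depend on the transcript model chosen, which was 2234 bases long for Psmc6, 2911 for Psma2 and 914 for Psma7. Other models were not tested. The subunits of the beta ring that cut substrate measured 104 ± 7.99 (Psmb5), 114 ± 9.90 (Psmb6) and 75.4 ± 6.17 (Psmb7) CPM per kb (SD, n = 3). Their interferon-inducible relative Psmb10 was at 16.2 ± 1.99 CPM per kb. Among the regulators, Psme2 (95.2 ± 13.7) and Psme1 (56.9 ± 5.54) stood above Psme3 (35.8 ± 1.81), Psme4 (16.9 ± 1.26) and Psmf1 (8.22 ± 0.294). The assembly chaperones ranged from 5.67 (Psmg4) to 21.0 CPM per kb (Psmd10). Psma8, at 0.143 ± 0.016 CPM per kb, was far below all other tested members.

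**Figure D4:**
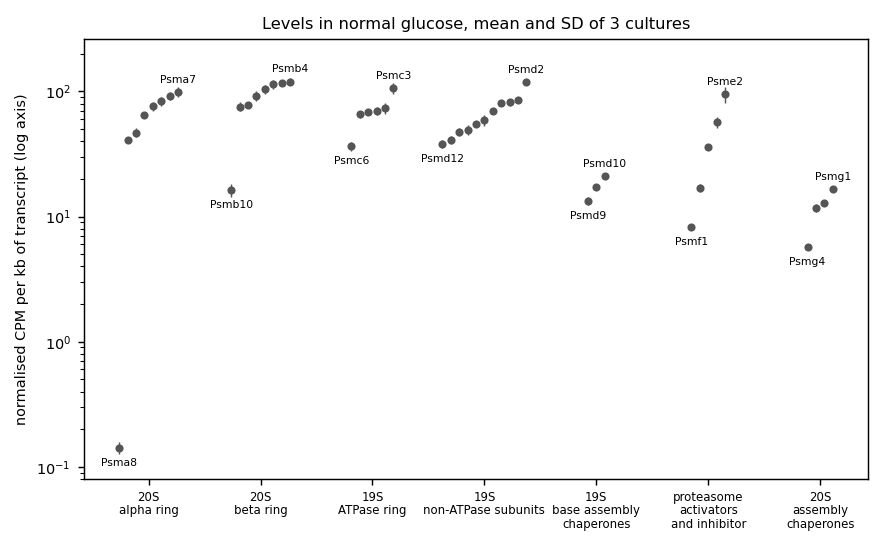
Level of each of the 45 tested members in normal glucose as normalised CPM per kb of transcript (log axis), mean and SD of 3 samples, grouped by role with the lowest and highest member named. The rings and the regulatory particle lie mostly between 36.5 and 120, and the assembly chaperones between 5.67 and 21.0.

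Members linked to antigen presentation were set beside interferon-stimulated genes. Of 15 such genes, all tested, 11 were lower by edgeR's test, against 14.5% of all tested genes lower, and none was higher, against 16.9%. Isg15 had 123, 97.8 and 111 CPM in normal glucose and 61.3, 59.1 and 60.1 CPM in high glucose. The summed list measured 1095, 1013 and 1064 CPM in normal glucose and 789, 797 and 801 CPM in high glucose, with Bst2 the most abundant. The lower genes were Isg15, Ifit1, Ifit2, Ifit3, Oas1a, Oasl2, Rsad2, Mx1, Bst2, Usp18 and Irf7, and the call of Irf7 was lost without normal glucose replicate 3 (edgeR adjusted p = 0.0801) or high glucose replicate 1, 2 or 3 (0.0674, 0.0875 and 0.0679). Psme2, at -0.38, moved the same way as these genes, and Psme1 and Psmb10 were not called. The members with letters of the interferon-stimulated response element, Psmb3, Psmd4, Psmd9, Psme1 and Psmg4, were at 0.01, 0.05, -0.09, -0.14 and 0.21. None of them was called. The part of interferon signalling in the Psme2 value was not tested. Psmb8, left out by the rule and looked at after its value was seen, measured 54.8, 41.0 and 47.4 CPM in normal and 37.8, 37.1 and 37.5 CPM in high glucose. Psmb8 had a log2 fold change of -0.35 (edgeR adjusted p = 0.0139), and Psmb9 one of -0.04 (interval -0.18 to 0.11).

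Genes that work with the proteasome were read beside it. Among the 12 partners outside the rule, 11 were tested, and 2 were higher and 1 lower (27.3%, against 31.4% of all tested genes). No identifier in the table mapped to Paaf1. Adrm1, a ubiquitin receptor of the regulatory particle, measured 85.5, 79.9 and 84.3 CPM in normal glucose and 95.7, 92.9 and 93.9 CPM in high glucose. Its groups were separate (log2 fold change 0.18, edgeR adjusted p = 0.0219). Zfand5, a proteasome-binding stress protein, was at 0.33 (edgeR adjusted p = 0.00208). Usp14, the deubiquitinase bound to the regulatory particle, was lower at -0.19 (edgeR adjusted p = 0.0255). Uchl5 (-0.16), Pomp (-0.18), the chaperone that completes the core particle, and Sem1 (-0.06) were not called. Without normal glucose replicate 2, Pomp was at -0.26 and passed (edgeR adjusted p = 0.0287). With library size alone, Pomp (-0.30, edgeR adjusted p = 0.0158) and Uchl5 (-0.28, edgeR adjusted p = 0.0273) passed. Sem1 was at 89.4 CPM in normal glucose replicate 1, against 57.2 and 68.3 CPM in the others of that group. Its direction turned without that sample and after removal of the GC and length trends, with values from -0.21 to 0.11.

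Leaving out single libraries ended 2 of these calls. For Adrm1, the edgeR adjusted p was 0.0603 and 0.0583 without normal glucose replicate 2 and 3, and 0.136, 0.0694 and 0.116 without high glucose replicate 1, 2 and 3. With library size alone, it was 0.347, and with upper quartile scaling 0.0679. Adrm1 was called in 11 of 19 alternatives. For Usp14, the edgeR adjusted p was 0.0834 and 0.0958 without high glucose replicate 1 and 3. The call of Zfand5 held in all 19 alternatives, at log2 fold changes from 0.21 to 0.34.

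Among 12 shuttle and p97 genes, only Ddi2 was called, or 8.33% against 31.4% of all tested genes (log2 fold change 0.42, edgeR adjusted p = 0.000302), and it held in all 19 alternatives, at values from 0.24 to 0.45. Ddi2 encodes the protease that processes the Nfe2l1 protein.

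Of 10 genes for factors that act on proteasome genes, or for the enzyme Ngly1, 3 were higher and 1 lower, against 16.9% and 14.5% of all tested genes. Nfe2l1 measured 406, 400 and 412 CPM in normal glucose and 468, 475 and 470 CPM in high glucose, and its groups were separate (log2 fold change 0.21 ± 0.05 SE, edgeR adjusted p = 0.00584). Without high glucose replicate 3, it was at 0.20 (edgeR adjusted p = 0.0520), and with library size alone at 0.10 (edgeR adjusted p = 0.105). With the GC and length trends removed and a replicate block, Nfe2l1 was at 0.14 (edgeR adjusted p = 0.0770). Nfe2l1 was called in 16 of 19 alternatives. Next to it, Psmb5, Psmb6, Psmc6, Psmd9 and Psmd12, whose antioxidant response letters are printed above, were at -0.02, -0.04, -0.15, -0.09 and -0.03 and were not called, and Psme4 was called higher at 0.20. Ngly1, the deglycosylase that acts on the Nfe2l1 protein, was at -0.03 (interval -0.15 to 0.10). Nfe2l2 was at -0.14 (edgeR adjusted p = 0.0612) and passed in 8 of 19 alternatives. Maff, a small Maf partner, was lower at -0.60 (edgeR adjusted p = 6.95e-05).

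Nfyb, an NF-Y subunit, was higher at 0.22 (edgeR adjusted p = 0.0260), and Nfe2l3 at 1.48 from a mean of 0.0540 CPM (edgeR adjusted p = 0.0325). For Nfyb, the edgeR adjusted p was 0.106 without normal glucose replicate 3, and 0.0878, 0.0898 and 0.132 without high glucose replicate 1, 2 and 3. With library size alone, Nfyb was at 0.10 (edgeR adjusted p = 0.252), and its edgeR call was also lost with upper quartile scaling (0.0684) and without a filter (0.0740). For Nfe2l3, it was 0.0904 and 0.112 without normal glucose replicate 1 and 3, and 0.0923, 0.102 and 0.0647 without high glucose replicate 1, 2 and 3. The Nfe2l3 call was also lost with DESeq2 (adjusted p = 0.0569) and without a filter (edgeR adjusted p = 0.0688), and its log2 fold change ranged from 1.201 to 2.258 over the alternatives. Its counts in normal glucose were 4, 14 and 4.

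**Figure D5:**
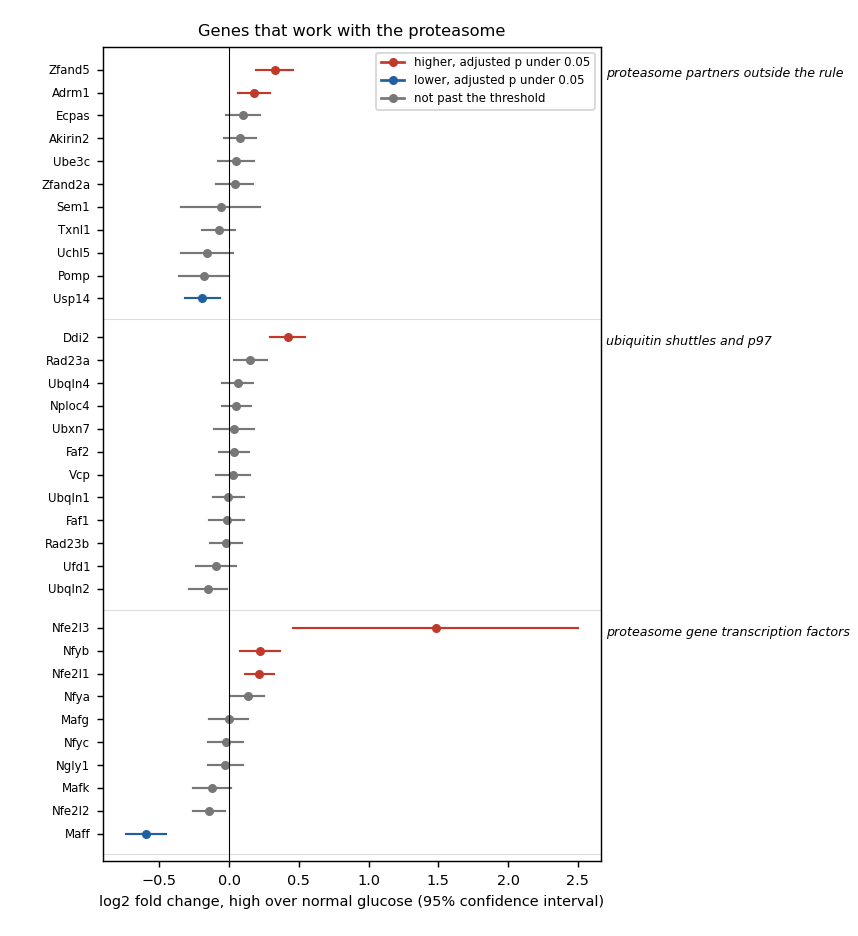
Log2 fold change in high over normal glucose (horizontal axis) with 95% confidence intervals for tested genes that work with the proteasome, in 3 groups, the last with the enzyme Ngly1. Red points are higher and blue points lower past the threshold, led by Ddi2 at 0.42, Zfand5 at 0.33 and Maff at -0.60 among genes that are not near the detection limit.

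Some members could share reads with other genes, as the sources do not say whether strand was used in counting. Psmb7 shares 405 exonic bases with Nek6 on the opposite strand, and Nek6 had 169308 counts in all libraries together against 65936 for Psmb7. Psmc3 shares 215 bases with Slc39a13 and Psmd13 shares 342 with Sirt3, also on opposite strands. Psmd9 shares 1849 bases with Gm26745 on the opposite strand, and the table holds no counts for Gm26745. How far shared reads enter the values of these members was not tested. Near-identical copies held few counts. Psme2b, 99.4% identical to Psme2 over the aligned bases, had 331 counts against 63597, and the largest share was 3.17% for the copy A730017L22Rik of Psmd11. Adding the copies to their members left the counts of calls at 3 higher and 4 lower.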

How the data were processed

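Counts per gene were deposited by the authors without normalization. Per the submitters' processing notes, the tools were Trimmomatic, HISAT2, StringTie and edgeR on GRCm38, with versions and annotation release not given in the sources used here. The labels name TRIzol and DNBSeq, while the study's methods name another kit and platform. The test was the quasi-likelihood test of edgeR 4.0.16 (R 4.3.3) after TMM normalization and a filter by filterByExpr, with minimum counts of 10 and 15 in total. P-values were Benjamini-Hochberg adjusted over 19015 genes. Confidence intervals (95%) used the test's standard errors. Groups and replicate numbers came from the sample titles. DESeq2 1.42.0, limma 3.58.1, other scalings and filters, GC and length trends (mgcv 1.9.3) and left-out replicates, a replicate block, halved counts and an adjusted p under 0.01 were alternatives. Copies came from BLAST+ 2.17.0 (at least 95% identity over 300 bases). Floors and intervals cover counting error and the spread between samples only. Gene models were from GENCODE vM21 (GRCm38).

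Named genes were the catalytic subunits, Psmb10, the regulators, and Nfe2l1, Adrm1, Sem1, Pomp, Usp14 and Uchl5. In each role group, the called members with the largest rise and fall were named or, without a call, those nearest the median. The called genes of the lists described were also named, but only some of those in the cell type marker lists. Other members and genes, such as the ends of ranges and those with separate groups, were named after their values were seen. Members, lists and motifs were chosen with earlier results of these data known.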

Additional observations from a re-analysis of the deposited data

How the results depend on the processing

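Psme2 kept its call and direction in all 19 alternatives. None of the 7 called members changed sign in any of them. Of the 38 tested members not called, 19 passed the threshold in at least 1 alternative, 11 of them in an alternative other than library size alone, and 24 changed sign in at least 1. For the samples with the same number in both groups, deviations correlated at -0.02, 0.00 and 0.01. The labels do not say whether equal numbers mark pairs, and the samples were treated as unpaired. A replicate block gave 5327 called genes, with 3 members higher and 1 lower.

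Members called higher numbered 1 with upper quartile scaling and without a filter, 0 with library size alone and with an adjusted p under 0.01, 7 after removing the GC and length trends and 6 when the replicate block was added. Members called lower numbered 17 with library size alone, 1 with an adjusted p under 0.01, 2 after removing the trends and 1 with the block added. The median was -0.15 with library size alone, 0.0466 after removing the trends and 0.0479 with the block added. All genes called higher and lower numbered 1819 and 4884 with library size alone. With an adjusted p under 0.01, 3617 genes were called, 1946 higher and 1671 lower. Upper quartile scaling and library size alone put 43.5% and 27.1% of calls in the higher direction, against 53.8%. The cause was not tested. With 1 sample left out, members called higher ranged from 0 to 2, members called lower from 1 to 9, the median from -0.0941 to -0.0109, and genes called higher from 1988 to 3149. Psma8 had no value under the minimum of 1 CPM.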
